A study of Mus musculus with 10 samples.

Results

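The members described here are the genes for subunits of the receptors that detect glutamate, GABA and glycine, the fast and modulatory transmitters of the retina. They were taken by name from a deposited table of gene-level RNA sequencing counts: the AMPA genes Gria1 to Gria4, the NMDA genes of the Grin1, Grin2 and Grin3 groups, the kainate genes Grik2 to Grik5, the metabotropic glutamate receptor genes (Grm) without Grm6, the GABA-A and GABA rho genes (Gabra to Gabrr), Gabbr1 and Gabbr2, and the glycine receptor genes Glra1 to Glra4 and Glrb. The rule found 47 of the 36115 genes in the table, and 46 of them had enough reads to be tested. Gabrp, the subunit named pi, had 3 reads in all 10 libraries together and was not tested.

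The libraries came from retinas of untreated mice aged 3 months on a C57BL/6 background. A group of 5 wild-type libraries (W1 to W5) was set against 5 (K1 to K5) labelled B6.129S2-Il6tm1Kopf/J, a line made to lack the cytokine interleukin-6, whose receptor acts through STAT3. The labels name no C57BL/6 substrain, litter or sex and do not say whether each library is a separate animal, so the spread behind each p-value may be technical. Total counts ran from 30433373 to 38857374 per library. Il6 itself had 0 or 1 read in each wild-type library and 3 to 7 reads in each library labelled knockout, which goes against the label, although gene-level counts do not show whether those reads lie in the interrupted part. Every direction below follows the labels. The libraries held retinal markers at high level, with 10 rod markers summing to 58269 to 82560 CPM (reads scaled to library size) over the 10 libraries. Lens markers summed to at most 1.85 CPM. Pigment epithelium markers varied widely, from 32.3 to 440 CPM over the wild-type libraries and from 187 to 327 CPM over those labelled knockout.

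In the retina, photoreceptors release glutamate onto bipolar and horizontal cells, and bipolar cells release it onto amacrine and ganglion cells. AMPA, NMDA and kainate receptors are cation channels, and metabotropic receptors act through G proteins. GABA-A, GABA rho and glycine receptors are chloride channels that carry the inhibition delivered by amacrine and horizontal cells, while GABA-B receptors act through G proteins. The libraries hold RNA of mixed retinal cells, so fewer cells of a type and less RNA per cell cannot be told apart.

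The GABA-A alpha subunit gene Gabra2 and the kainate receptor gene Grik3 fell in the libraries labelled knockout, and no member was called higher. The test was edgeR's quasi-likelihood test on the whole table with Benjamini-Hochberg adjustment, and a gene was called at an adjusted p under 0.05. Of the 46 tested members, 2 were called, both lower, beside 385 of 18965 genes tested (2.03%), of which 222 were lower (1.17% of those tested) and 163 higher (0.859%). No member was higher at an unadjusted edgeR p under 0.05 in the fit reported, and neither DESeq2 nor limma-voom called one higher. Glra1 was higher at an unadjusted p of 0.0394 in the authors' deposited DESeq2 comparison (adjusted p = 0.334). Gabrr1 was higher at an unadjusted edgeR p of 0.0231 with 1 surrogate variable and 0.00312 without W2 (adjusted p = 0.196 and 0.0784). In the lower direction 4 members, Gabra2, Grik3, Grin2c and Gria4, reached an unadjusted edgeR p under 0.05 in the fit reported. That threshold was reached in that direction by 7.03% of all genes tested. Gabra2 was the 1 member whose groups did not overlap in level, a separation seen in 3.48% of all genes tested and, with labelled knockout lower, in 1.72%.

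Because the disrupted cytokine acts through STAT3, the stretches upstream of the 2 genes that fell are shown first. They are the 250 bases before each start in RefSeq on GRCm38.p6, read along the strand of the gene, for Gabra2 at chr5:71095850-71096099 (minus strand) and for Grik3 at chr4:125490446-125490695 (plus strand). Capitals would mark the letters TTCNNNGAA, the core of a STAT site, which reads the same on both strands.
Gabra2: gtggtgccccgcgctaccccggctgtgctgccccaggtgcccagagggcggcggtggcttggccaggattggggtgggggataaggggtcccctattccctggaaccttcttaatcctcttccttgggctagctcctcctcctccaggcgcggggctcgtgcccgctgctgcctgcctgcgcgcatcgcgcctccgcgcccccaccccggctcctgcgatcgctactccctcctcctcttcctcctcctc
Grik3: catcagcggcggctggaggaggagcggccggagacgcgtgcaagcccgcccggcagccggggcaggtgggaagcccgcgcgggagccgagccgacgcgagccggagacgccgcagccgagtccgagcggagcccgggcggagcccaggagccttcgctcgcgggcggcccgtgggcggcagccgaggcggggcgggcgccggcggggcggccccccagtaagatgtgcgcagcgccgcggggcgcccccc
Neither window of 300 bases (250 before the start and 50 after) held those letters. Both stretches were rich in G and C, at 70% in Gabra2 and 82% in Grik3, with 18 and 42 CG pairs. Among the 34 members matched in the RefSeq windows, 2 held the letters (5.88%), against 9.55% of all genes with a window. Those 2 were Gabrb1 and Gabrg1, which lie in the same chromosome 5 cluster as Gabra2 and were not called. In Gabrg1 the match lies 146 bases before the start, outside annotated exons, and is shown in capitals within chr5:70842730-70842788 (minus strand).
Gabrg1: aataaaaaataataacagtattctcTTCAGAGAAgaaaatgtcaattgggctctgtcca
A match is a description of the letters and not of binding.

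Gabra2 encodes an alpha subunit of GABA-A receptors. Alpha subunits form the binding sites for GABA and benzodiazepines together with the subunits beside them. The gene (ENSMUSG00000000560.9) lies on chromosome 5, 70957597 to 71095849, on the minus strand of GRCm38. CPM values are after TMM scaling, which corrects for differences in library make-up. Gabra2 stood at 55.2, 60.5, 42.7, 42.3 and 43.2 CPM in W1 to W5 and at 23.8, 25.8, 24.2, 33.3 and 24.6 CPM in K1 to K5. W1 and W2 were the highest wild-type libraries and K4 the highest labelled knockout library, which still lay below every wild-type library. The means were 48.8 ± 8.53 and 26.3 ± 3.94 CPM (SD, n = 5), and the log2 fold change was -0.89 ± 0.12 (SE), at an edgeR adjusted p of 0.000606. On the linear scale the level in labelled knockout was 0.540 of that in wild type, with a 95% interval of 0.453 to 0.644. In the authors' deposited table the log2 fold change is -0.76 with an adjusted p of 9.89e-10. The DESeq2 fit made here gave -0.89 at nearly the same unadjusted DESeq2 p (2.48e-12, against 2.49e-12 deposited). The deposited log2 fold changes are thus not on the same measure as those given here and do not show a weaker effect. All 17 alternative fits called Gabra2 lower, with log2 fold changes from -0.99 to -0.80 and adjusted p from 1.14e-09 to 0.00345.

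**Figure D1:**
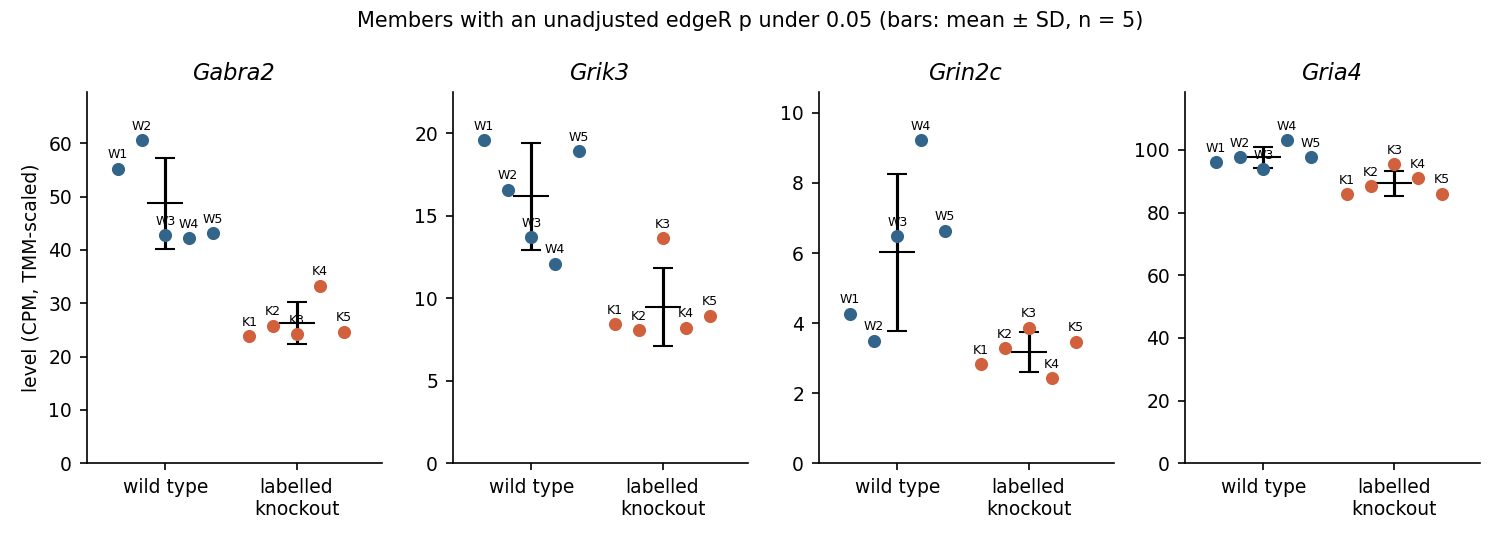
Level in CPM (y axis from 0) of the 4 members with an unadjusted edgeR p under 0.05, in each of 5 wild-type and 5 labelled knockout libraries, with the mean and SD as bars. In Gabra2 the lowest wild-type library stands at 42.3 CPM and the highest labelled knockout library at 33.3 CPM, while the points of the groups overlap in Grik3, Grin2c and Gria4.

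The receptor genes beside Gabra2 were not called. Gabra2 belongs to a cluster on chromosome 5 from 70751047 to 72149037 that also holds Gabrg1, Gabra4 and Gabrb1, genes for the gamma 1, alpha 4 and beta 1 subunits. Their log2 fold changes were -0.18 ± 0.12, -0.06 ± 0.16 and -0.05 ± 0.10 (SE), with edgeR adjusted p of 0.567, 0.921 and 0.889. The 95% intervals of these 3 reached down to -0.43, -0.39 and -0.25, above the upper end of the Gabra2 interval at -0.64. Within 1 Mb of Gabra2, 4 other genes were tested, these 3 and Gm15616. None was called by edgeR, beside 2.03% of all genes tested. Gabra2 lies 40.9 Mb from Il6 on the same chromosome, and Grm3, at 20.3 Mb the member nearest to Il6, had a log2 fold change of -0.10 ± 0.21 (adjusted p = 0.889).

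**Figure D2:**
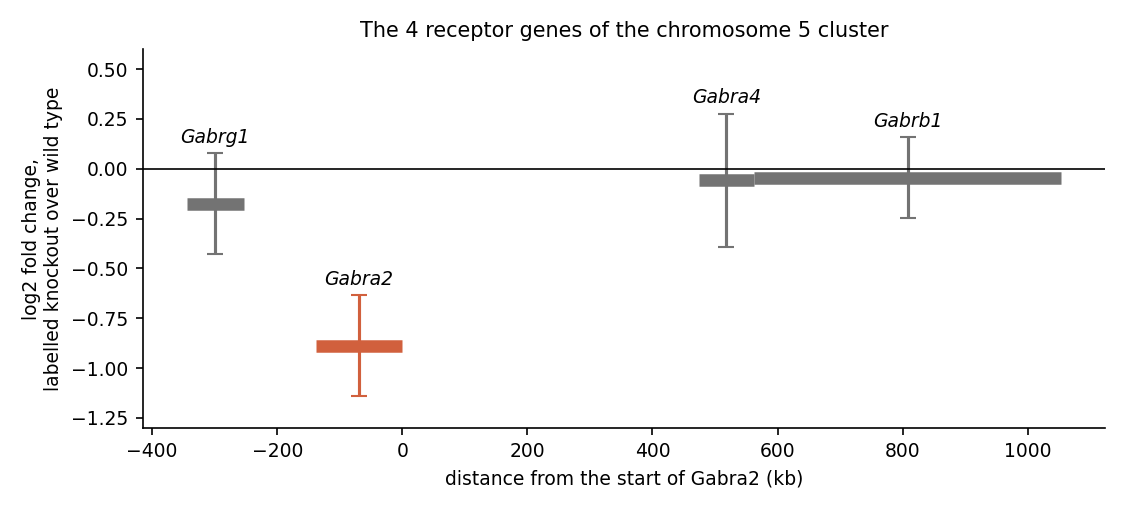
Log2 fold change of labelled knockout over wild type (y axis) for the 4 receptor genes of the chromosome 5 cluster against distance from the start of Gabra2 in kb (x axis). Thick bars span each gene and thin bars are 95% intervals, and the interval of Gabra2 lies below those of its 3 neighbours.

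As background, mice of the C57BL/6J substrain are known to carry a small intronic deletion in Gabra2 that lowers its mRNA. The labels give no substrain for either group, the counts do not show that base, and genotype and genetic background cannot be told apart in this design. Nnt, part of which is deleted in C57BL/6J, stood between 0.180 and 0.661 CPM over all 10 libraries and was not called (log2 fold change -0.39, edgeR adjusted p = 0.660). Wdfy1, looked at together with Nnt, was 1 of the 222 genes called lower. It stood at 50.4 to 84.1 CPM over the wild-type libraries and at 23.2 to 27.3 CPM over those labelled knockout. Its log2 fold change was -1.47 (edgeR adjusted p = 8.14e-06), and these counts do not tie its level to a substrain. Both genes were chosen after the levels of Gabra2 were seen, and substrain was not tested. Amacrine cells carry much of the GABA-A receptor of the inner retina. The summed level of 12 amacrine markers ran from 1591 to 1664 CPM in wild type and from 1371 to 1610 CPM in labelled knockout, with log2 fold changes below 0 in 8 of the 12. None of the 12 was called by edgeR. Of the 12 markers 2, Gad2 and C1ql2, were lower at an unadjusted p under 0.05, against 7.03% of all genes tested. Their part in the level of Gabra2 was not tested.

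Other alpha subunit genes did not pass the test. Gabra3 stood at 49.0 ± 4.85 and 48.5 ± 2.24 CPM, Gabra4 at 10.9 ± 2.83 and 10.5 ± 1.41 CPM, and Gabra5 at 1.49 ± 0.296 and 1.60 ± 0.486 CPM in wild type and labelled knockout (SD, n = 5). None of these 3 was called, with log2 fold changes of -0.01, -0.06 and 0.11. Gabra5, at the lowest level, had the widest interval of these, from -0.40 to 0.61.

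Genes for beta, gamma, delta and rarer GABA-A subunits did not pass the test. Gabrb2 and Gabrg3 had log2 fold changes of -0.20 ± 0.11 and -0.16 ± 0.09 (edgeR adjusted p = 0.458 and 0.476). Gabrd, whose subunit sits outside synapses, stood at 18.0 ± 2.67 and 18.1 ± 1.80 CPM. Gabrq and Gabre, for the theta and epsilon subunits, were near the floor of detection at 0.401 to 1.17 CPM on average in either group. Their 95% intervals, from -0.42 to 0.69 and from -0.87 to 0.27, leave changes of that size undetectable at this depth. Of the 14 tested GABA-A genes, 1 was called lower and 13 were not called, and 9 of the 14 had a log2 fold change below 0 (median -0.04).

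Grik3 encodes a kainate receptor subunit with low sensitivity to glutamate (ENSMUSG00000001985.9, chromosome 4, 125490700 to 125714173, plus strand). It stood at 19.6, 16.6, 13.7, 12.1 and 18.9 CPM in W1 to W5 and at 8.44, 8.07, 13.6, 8.22 and 8.95 CPM in K1 to K5. K3 stood apart from the other labelled knockout libraries and above W4, so the groups overlapped through that library. Group means of 16.2 ± 3.24 and 9.46 ± 2.36 CPM (SD, n = 5) gave a log2 fold change of -0.77 ± 0.16 (SE), at an edgeR adjusted p of 0.0235. The authors' deposited table gives -0.60 with an adjusted p of 0.000312, on its own measure, beside -0.77 in the DESeq2 fit made here. The call was lost without W1, K2, K4 or K5 and without W5 and K5 together (adjusted p = 0.0593, 0.0620, 0.0791, 0.0649 and 0.118), and it was made in the other 12 of 17 alternatives. Without K3 the log2 fold change was -0.94 with an adjusted p of 0.00338. Within 1 Mb of Grik3, 1 of 39 other genes tested was called (2.56%, beside 2.03% of all genes tested), the cilium gene Tekt2, which rose.

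The other kainate genes of the set did not pass the test, and all 4 members had a log2 fold change below 0. Grik5, a high-affinity subunit that needs a partner such as Grik2 or Grik3 to form a channel, stood at 103, 90.4, 93.7, 119 and 97.3 CPM in W1 to W5 and at 87.2, 105, 104, 86.6 and 112 CPM in K1 to K5. The groups overlapped over nearly their whole range, and the log2 fold change of -0.02 ± 0.09 (edgeR adjusted p = 0.944) turned above 0 in 3 of 17 alternatives. Grik2 stood at 25.1 ± 3.62 and 24.0 ± 2.29 CPM and Grik4, the other high-affinity subunit, at 4.73 ± 0.806 and 4.14 ± 0.693 CPM (log2 fold changes -0.06 and -0.19). Levels of different genes were compared as CPM per kilobase of annotated exons. On that scale Grik5 stood at 19.3 CPM, against 1.85 for Grik2, 1.43 for Grik3 and 0.744 for Grik4, and Grik5 led in all 10 libraries. Grik3 made up 8.67%, 8.54%, 6.85%, 4.92% and 9.04% of the summed level of the 4 genes in W1 to W5, against 4.74%, 3.74%, 6.29%, 4.53% and 3.94% in K1 to K5. The groups overlapped through W4 and K3, and the share, chosen after the levels were seen, restates the called difference and was not tested. Grik1, outside the naming rule and known for its part in OFF bipolar cells, stood at 112 ± 8.58 and 113 ± 10.2 CPM.

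Neither auxiliary subunit of kainate receptors passed the test. Neto1, which slows the closing of the channel, stood at 13.9 ± 1.49 and 10.1 ± 1.68 CPM (log2 fold change -0.46 ± 0.12, edgeR adjusted p = 0.0722), and Neto2 at 41.9 ± 7.37 and 35.0 ± 2.62 CPM (-0.26 ± 0.10, adjusted p = 0.270). Neto1 was called lower by DESeq2, without a low-count filter and without W3.

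Grin2c, an NMDA receptor subunit gene best known from cerebellum and astrocytes, had the largest log2 fold change of the tested members in size but did not pass the test (ENSMUSG00000020734.13, chromosome 11, 115249169 to 115267243). It stood at 4.27, 3.49, 6.48, 9.21 and 6.63 CPM in W1 to W5 and at 2.83, 3.27, 3.87, 2.43 and 3.46 CPM in K1 to K5. W4 was the highest library, and W2 lay below K3, so the groups overlapped. Group means of 6.02 ± 2.25 and 3.17 ± 0.559 CPM gave a log2 fold change of -0.93 ± 0.23, for which edgeR's adjusted p was 0.0530. DESeq2 called it lower (adjusted p = 0.00256), as did 4 other alternatives, the fit without a low-count filter, the fit with 1 surrogate variable and the fits without W1 or W2, with adjusted p from 0.00256 to 0.159 over all 17. DESeq2 thus called 3 members lower, Gabra2, Grik3 and Grin2c, against 1.78% of the genes to which it gave an adjusted p. In the authors' deposited table Grin2c stands at -0.61 (log2 fold change, on its own measure), adjusted p 0.00240, beside -0.93 in the DESeq2 fit made here. Within 1 Mb, 2 of 60 other genes tested were called (3.33%, beside 2.03% of all genes tested), Rab37 and Cd300lf, both lower. Astrocyte markers, 4 in number and led by Gfap, summed to 15.8 to 28.4 CPM in wild type and 21.5 to 28.9 CPM in labelled knockout, with none called or at an unadjusted p under 0.05.

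**Figure D3:**
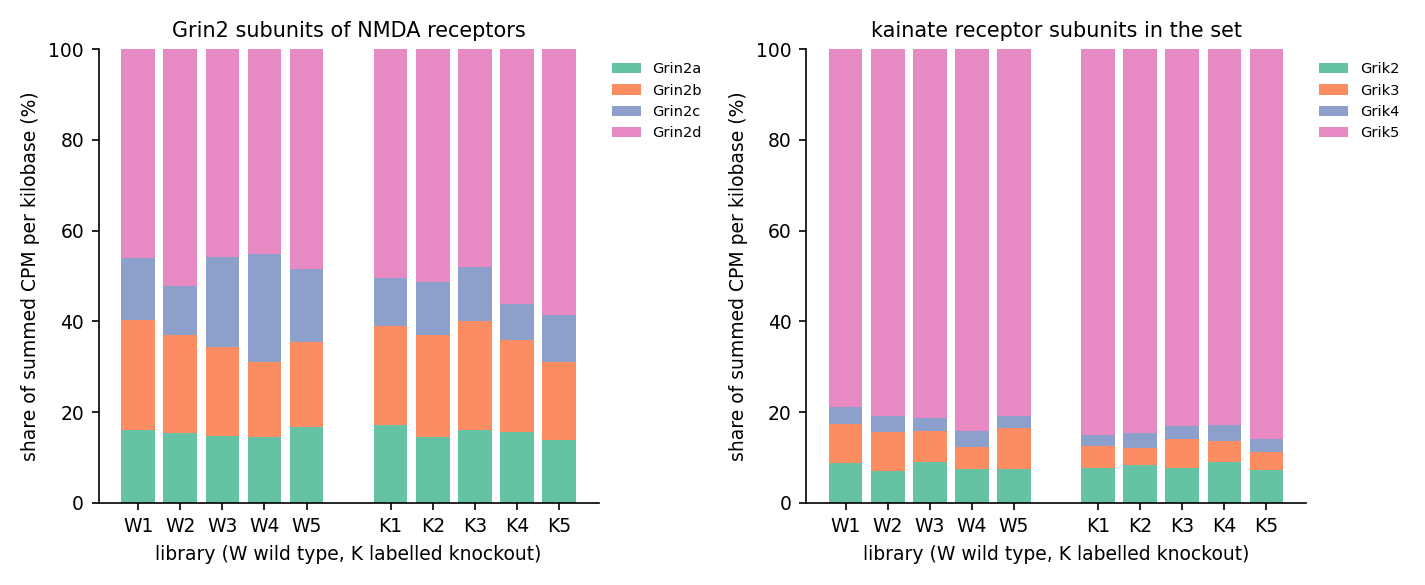
Share of the summed CPM per kilobase (y axis, percent) taken by each Grin2 gene (left) and each kainate gene of the set (right) in each library (x axis). The Grik3 segment is 4.92% to 9.04% in wild type and 3.74% to 6.29% in labelled knockout, and the Grin2c segment is 10.9% to 23.8% and 7.87% to 11.8%.

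All 7 NMDA genes had a log2 fold change below 0, with a median of -0.13, and none was called by edgeR. Beside that, 49.6% of all genes tested were below 0 and their median was 0.00175. NMDA receptors are prominent on ganglion and amacrine cells. Of 12 ganglion cell markers 10 were below 0, and 2, Nefl and Nefh, were above 0. None of the 12 was called by edgeR, and 2 were lower at an unadjusted p under 0.05, against 7.03% of all genes tested. The summed level of the ganglion cell markers ran from 815 to 1206 CPM in wild type and from 804 to 1085 CPM in labelled knockout. Its median was 901 CPM in wild type and 973 CPM in labelled knockout, so the sum was not lower by median. Their part in the NMDA values was not tested. Grin1, the subunit that every NMDA receptor needs, stood at 76.5, 79.8, 76.8, 90.3 and 89.0 CPM in W1 to W5 and at 77.2, 78.0, 82.2, 62.9 and 71.6 CPM in K1 to K5. The groups overlapped, and the log2 fold change was -0.15 ± 0.08 (edgeR adjusted p = 0.442). Grin2a and Grin2b, which set the kinetics of the channel and whose balance shifts as synapses mature, had log2 fold changes of -0.22 ± 0.11 and -0.13 ± 0.09. Their ratio per kilobase was 0.778 ± 0.0999 in wild type and 0.738 ± 0.0782 in labelled knockout, with overlapping groups. Grin2d, Grin3a and Grin3b had log2 fold changes between -0.05 and -0.01. Antisense or neighbouring transcripts overlap 13.5% of the annotated exon length of Grin1, 9.66% of that of Grin2d and 32.1% of that of Grin3b. In Grin3b it is Tmem259 that runs on the other strand. Over the whole set, exons of 18 of the 47 members overlap another annotated gene, among them Grm2 (9.6%) and Glra1 (5.84%), both with antisense genes. Reads of pairs on opposite strands cannot be told apart unless strand was used in counting, which the sources used here do not give.

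None of the AMPA genes, which carry most fast excitation between retinal neurons, was called by edgeR. Gria4 had the highest level per kilobase of the 4 in all 10 libraries and stood at 96.2, 97.7, 93.8, 103 and 97.6 CPM in W1 to W5 and at 85.9, 88.5, 95.4, 90.9 and 86.1 CPM in K1 to K5. Of the labelled knockout libraries, K3 alone reached the wild-type range. The means were 97.7 ± 3.38 and 89.3 ± 3.94 CPM, a log2 fold change of -0.13 ± 0.06 with an unadjusted p of 0.0435 and an edgeR adjusted p of 0.342. Gria2, whose edited form makes the channel nearly impermeable to calcium, stood at 154 ± 31.8 and 151 ± 19.7 CPM and made up 24.9% ± 3.68 and 25.6% ± 2.69 of the summed AMPA level per kilobase. Gria1 and Gria3 had log2 fold changes of 0.05 and -0.09, and the 95% intervals of all 4 genes lay within 0.5 of 0. Over AMPA, NMDA and kainate genes together, 14 of 15 had a log2 fold change below 0 and 1 was called.

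Metabotropic receptors showed no called difference among the 7 genes of the set. Grm2, an inhibitory autoreceptor gene with the highest level per kilobase of the 7, stood at 17.5, 25.4, 19.96, 23.1 and 22.2 CPM in W1 to W5 and at 19.3, 20.5, 19.0, 18.0 and 16.5 CPM in K1 to K5. W1 and W3 lay within the labelled knockout range, and the log2 fold change was -0.21 ± 0.10 (edgeR adjusted p = 0.369). Grm5, which couples to phospholipase C, had a log2 fold change of 0.06 ± 0.11. Grm4, Grm7 and Grm8, presynaptic receptors of the same group as Grm6, had log2 fold changes of -0.01, -0.04 and 0.08, and Grm3 stood at 1.23 ± 0.238 and 1.145 ± 0.148 CPM. The order by level was loose here: Grm2, Grm7 and Grm8 stood between 3.43 and 4.12 CPM per kilobase with overlapping ranges, and with the longest transcript as length Grm8 came first. Grm6, the ON bipolar receptor left out by the rule, stood at 162 ± 27.2 and 174 ± 25.7 CPM with a log2 fold change of 0.10 (adjusted p = 0.767).

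Gabrr1, a gene for a GABA rho subunit, had the highest level per kilobase of the whole set with either measure of gene length. Gabrr1 and Gabrr2 encode the slow, long-lasting GABA receptor of bipolar cell terminals and are neighbours on chromosome 4, from 33062999 to 33163588. Gabrr1 stood at 114, 139.8, 112, 100.4 and 97.7 CPM in W1 to W5 and at 120.3, 139.8, 139.7, 129 and 115 CPM in K1 to K5. The groups overlapped, and the log2 fold change was 0.19 ± 0.10 (edgeR adjusted p = 0.408). Gabrr2 and Gabrr3 had log2 fold changes of 0.10 ± 0.08 and -0.19 ± 0.10, neither past the test. Per kilobase, Gabrr1 stood at 52.8 and Gabrr2 at 37.6 CPM, beside 28.8 for Gabbr1 and 3.72 for Gabrr3. With the longest transcript as gene length, Gabbr1 at 42.7 passed Gabrr2 at 41.0 CPM per kilobase. Gabrr1 lay above Gabrr2 in all 10 libraries, with a ratio of 1.36 ± 0.172 in wild type and 1.45 ± 0.0671 in labelled knockout.

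**Figure D4:**
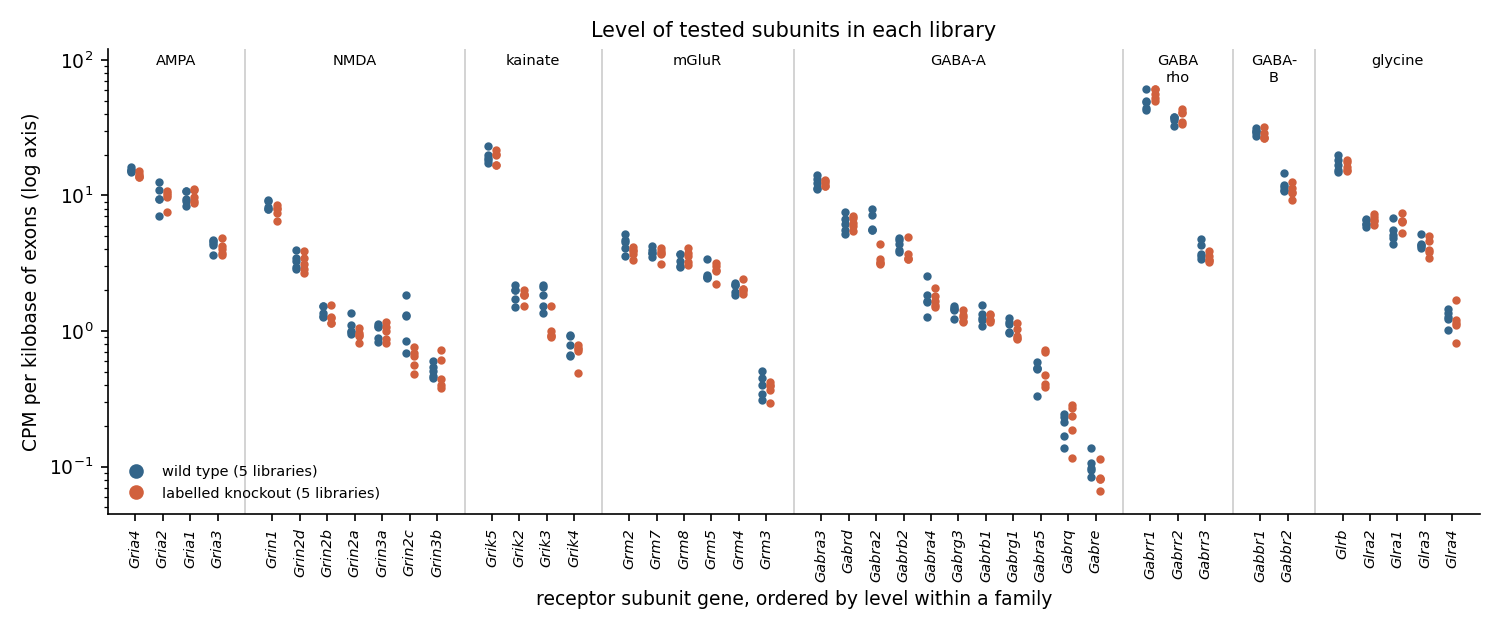
Level of 42 tested subunit genes as CPM per kilobase of exons (log y axis), with 1 point for each wild-type (blue) and labelled knockout (orange) library and genes ordered by level within a family. Levels run from about 0.0942 CPM per kilobase in Gabre to 52.8 in Gabrr1, and the 2 colours separate fully in Gabra2.

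GABA-B and glycine receptor genes were not called. Gabbr1, which binds GABA, stood at 226, 232, 213, 234 and 245 CPM in W1 to W5 and at 223, 204, 247, 205 and 210 CPM in K1 to K5, and Gabbr2, which couples to the G protein, at 79.9 ± 10.5 and 72.4 ± 8.16 CPM. Both genes overlapped between the groups (log2 fold changes -0.08 ± 0.07 and -0.14 ± 0.09). The ratio of Gabbr1 to Gabbr2 per kilobase ran from 2.15 to 2.71 in wild type and from 2.49 to 2.84 in labelled knockout. Glrb, the beta subunit that anchors glycine receptors to gephyrin, stood at 69.7, 92.3, 85.2, 71.5 and 78.3 CPM in W1 to W5 and at 74.9, 71.6, 82.9, 85.3 and 71.0 CPM in K1 to K5. Its groups overlapped, and its log2 fold change of -0.04 ± 0.09 (edgeR adjusted p = 0.886) turned above 0 without W2. Glra1, the alpha subunit of adult fast glycine receptors, had the largest positive log2 fold change of the tested members, 0.26 ± 0.12, from 12.9 ± 2.28 to 15.4 ± 1.81 CPM (unadjusted p = 0.0509, edgeR adjusted p = 0.365). Glra2, Glra3 and Glra4 had log2 fold changes of 0.09, -0.08 and -0.07. The ratio of Glra1 to Glra2 per kilobase was 0.852 ± 0.166 and 0.960 ± 0.123, with overlapping groups.

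**Figure D5:**
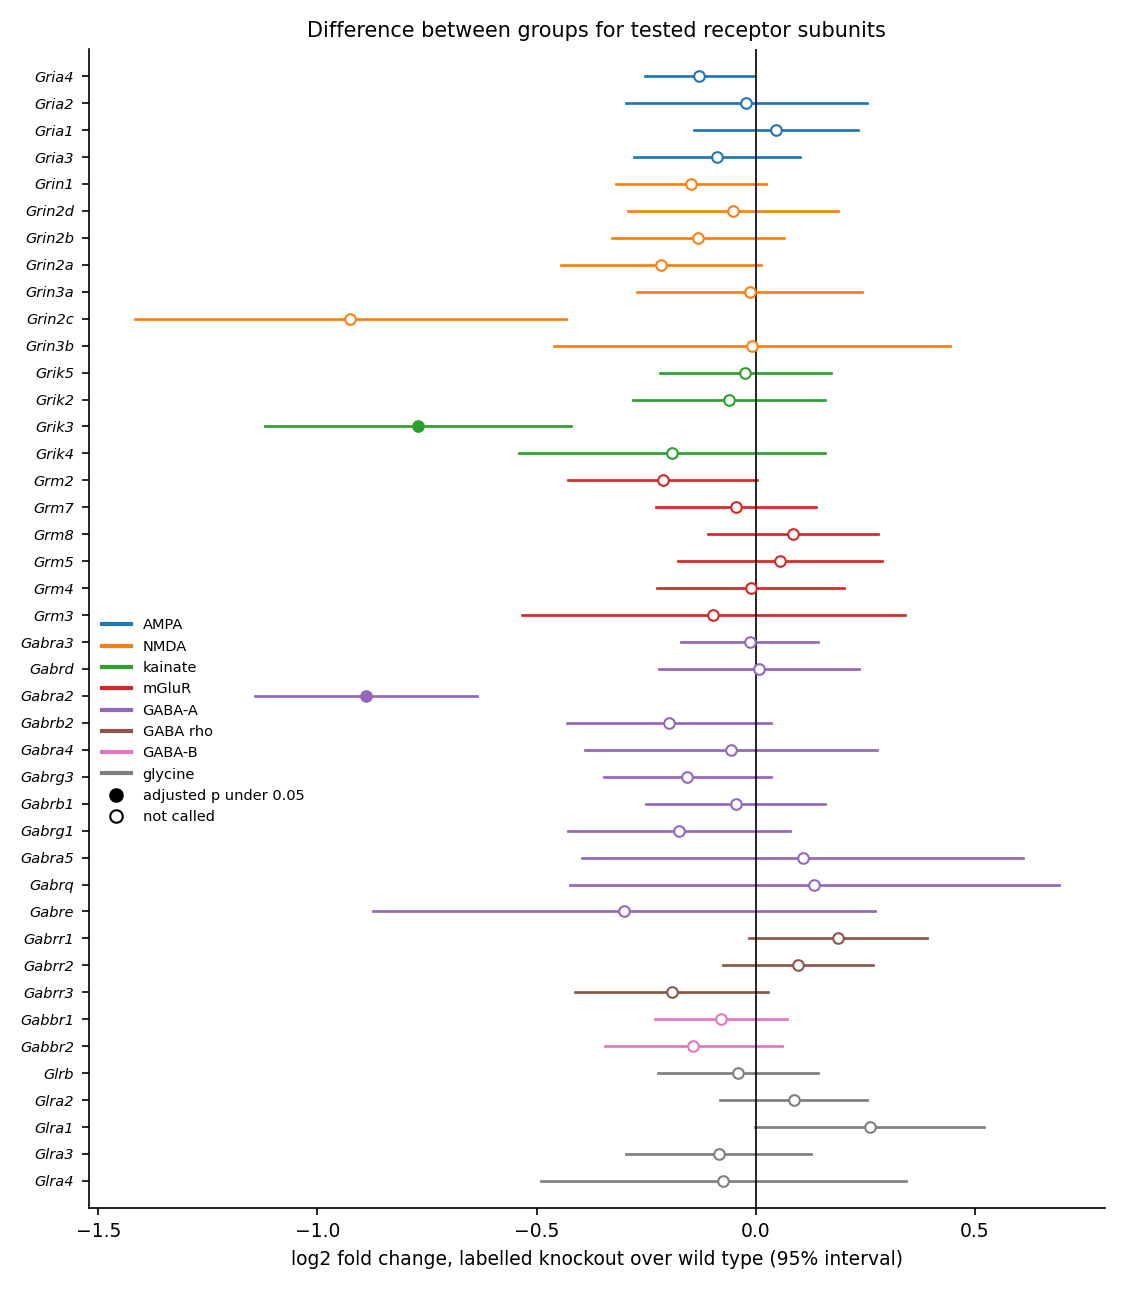
Log2 fold change of labelled knockout over wild type (x axis) with its 95% interval for 42 tested members, coloured by family, with filled points for an edgeR adjusted p under 0.05. The filled points are Gabra2 at -0.89 and Grik3 at -0.77, and 32 of the 42 points lie below 0.

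Across the members as a whole, most intervals were narrow. In 37 of the 46 the 95% interval lay within 0.5 of 0 on the log2 scale, as it did in 11167 of the 18965 genes tested. The median log2 fold change of the 46 was -0.05, and 34 (73.9%) were below 0 beside 49.6% of all genes tested. Intervals of Gabra2, Grik3 and Grin2c ran from -1.14 to -0.64, from -1.12 to -0.42 and from -1.42 to -0.43. Their ends nearest 0 lay farther from 0 than those of any other of the 46. By position, 17 members fell into 6 clusters of neighbouring receptor genes, and in the 5 clusters other than that of Gabra2 the log2 fold changes ran from -0.30 to 0.19.

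The partners of these receptors did not pass the test. The list of other pathway genes held auxiliary subunits, scaffolds, trafficking genes and the 4 family genes outside the rule. Of 57 listed genes 55 were tested, and edgeR called 0, with 0 higher and 4 lower at an unadjusted p under 0.05. The 4 of 55 lie near the 7.03% of all genes tested that were lower at that threshold. DESeq2 called 1, Neto1, and limma-voom 0. The other 3 at that threshold were Neto2, Shisa6 and Homer1. Shisa6, which keeps AMPA receptors at synapses, stood at 13.5 ± 1.07 and 11.2 ± 0.923 CPM, and Homer1, which ties metabotropic receptors to internal calcium stores, at 43.7 ± 3.46 and 37.0 ± 4.41 CPM, with adjusted p of 0.201 and 0.211. None of the 14 scaffold and trafficking genes of GABA-A and glycine receptors reached an unadjusted p under 0.05, and the lowest adjusted p among them was 0.479.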

How the data were processed

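Gene-level counts of 10 retinal RNA libraries were used. The counts are raw whole reads per gene that the authors deposited, and per the submitters' processing notes STAR 2.5.3a, featureCounts 1.15.2 and DESeq2 1.14 were used with GRCm38.p5. Beside the counts, per the file headers, stands the authors' own comparison of knockout over control, with a deposited mean signal (counts over size factors, not used), log2 fold changes and p-values, some of which are quoted. Strand and multi-mapping settings are not given in the sources used here.

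Genes were filtered with filterByExpr (minimum count 10, minimum total 15), scaled with TMM factors (0.954 to 1.04) and tested with edgeR 4.0.16 (quasi-likelihood, genotype label as the only term, R 4.3.3). The SE is the absolute log2 fold change over the square root of F. Alternatives used DESeq2 1.42.0, limma 3.58.1 and sva 3.50.0. The code was tested on simulated data. Exon lengths came from GENCODE M21, which had the same coordinates for 45 of the 47 members, and upstream sequences from RefSeq on GRCm38.p6, which matched 34 members. Cacng7, Cacng8 and Lim2 were listed but not analysed here.

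Values of some members are not reported here. Otherwise, values in every library are given for members that were called, had an unadjusted p under 0.05, did not overlap between groups or had the highest level per kilobase in their family. The members and lists were chosen with earlier results of these data known.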

Additional observations from a re-analysis of the deposited data

Results flagged for a closer look

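Some libraries lay far from the other 4 of their group, by a gap that exceeded Dixon's critical value of 0.71 as a share of the group's range. Of 106 groups of 5 values checked, 6 met it, where chance gives about 1 in 20. In the libraries labelled knockout, Gabra2 stood at 33.3 CPM in K4 against 23.8 to 25.8 in the others, still below wild type, and Grik3 at 13.6 CPM in K3 against 8.07 to 8.95. K3 also stood apart in Gabrb2, at 31.5 CPM against 21.6 to 23.5, and K1 in Grik4, at 2.94 CPM against 4.26 to 4.71. Among wild-type libraries, W2 stood apart in Grm5, at 35.1 CPM against 25.4 to 26.5, and W3 in Gabra5, at 0.978 CPM against 1.57 to 1.75.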

How the results depend on the processing

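Gabra2 kept its direction and its call in all 17 alternatives, and Grik3 kept its direction in all and its call in 12. Of members called lower, 2 in the fit reported, the count ran from 1 to 3 over the fits that left out 1 library each, was 3 with DESeq2, 3 with 1 surrogate variable and 3 when low counts were kept, and was 1 without W5 and K5 together, an alternative added with earlier results known. No alternative called a member higher. Of other pathway genes called lower, 0 in the fit reported, the count was 1 with DESeq2, without a low-count filter and without W3 (range 0 to 1 over the fits that left out 1 library).

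Over all genes, 163 were called higher and 222 lower. These became 298 and 406 without a low-count filter, 319 and 444 with DESeq2, and 303 and 355 with 1 surrogate variable. Leaving out 1 library gave 71 to 253 higher and 140 to 289 lower, and leaving out W5 and K5 together gave 107 higher. Signs turned in uncalled genes near 0. Over the fits that left out libraries, the log2 fold change of Glrb ran from -0.0851 without W1 to 0.0180 without W2. Grik5 ran from -0.0852 without W5 and K5 together to 0.0435 without W4 and was 0.0177 without K1 and 0.0204 without K4. The cause of these shifts was not tested. With the longest transcript as gene length, Gria4, Grin1, Grik5, Gabrr1, Gabbr1 and Glrb each stayed highest per kilobase in their family. Grm8 passed Grm2 on that length, and over all members Gabbr1 passed Gabrr2. Members at the lowest levels (Gabre, Gabrq, Gabra5, Grm3, Grin3b and Glra4) are limited by depth. No paired analysis was made because the labels give no litter or other pairing of libraries between the groups.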
